A study of Fundulus heteroclitus with 36 samples.

Results

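The genes described here carry out DNA replication and mitosis in the embryonic brain of the Atlantic killifish, Fundulus heteroclitus. They were chosen by RefSeq gene symbol, but with earlier results of these data known. The symbols covered the MCM, ORC, GINS, CENP and condensin (ncap) families, cyclins A, B and E, and cdk1 and cdk2. They also covered Aurora, Polo and Bub1 kinases, mitotic kinesins, pcna, mki67, top2a and ribonucleotide reductase. The rule matched 61 of the 31637 genes in the files, and all 61 were tested. No gene matched the symbols rrm1, rrm2, ccna2, aurka, orc6 or cenpa, which were not analysed here. The symbol rule also took in aurkaip1, whose human counterpart is a mitochondrial ribosome protein, and cenpj, which builds centrioles, so summaries per embryo use the other 59 genes.

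Each library was the whole brain of 1 embryo, taken at 17 days post fertilization, with 6 embryos in each of 6 groups. NBH fish came from New Bedford Harbor and SCO fish from Scorton Creek, both in Massachusetts. NBH Control and SCO Control embryos had parents on a salmon diet low in methylmercury and received no direct exposure that the labels name. Per the series' design text, embryos for direct exposure also came from low-methylmercury parents of both populations, and they were held in PCB126, a dioxin-like polychlorinated biphenyl, from day 1 to day 7. The dose was 40 ng/L in NBH PCB40 and SCO PCB40 and 400 ng/L in NBH PCB400. SCO Hg Fed embryos had parents on a tuna diet high in methylmercury. The labels do not say which embryos shared parents, so p-values measure the spread between these embryos. No SCO group at 400 ng/L was analysed here, so the higher dose was compared within NBH fish.

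To copy its genome a cell first loads the ring-shaped MCM helicase at origins marked by the ORC proteins, with the help of Cdc6. Cdc45 and the GINS complex then switch the helicase on, and PCNA clamps the polymerases to DNA. Entry into mitosis is driven by cyclin B with Cdk1, condensins compact the chromosomes, kinetochores built on CENP proteins attach them to the spindle, and kinesins with the Aurora B and Polo-like kinases separate them and divide the cell. In a developing vertebrate brain these transcripts come mainly from dividing progenitors, since neurons leave the cell cycle. In bulk tissue, fewer dividing cells and less of these RNAs per dividing cell cannot be told apart.

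Library depth ran from 38.5 to 66.4 M estimated reads with a median of 52.9 M. Levels below are in CPM, counts scaled to library size, which compare 1 gene between libraries, while TPM values, which also correct for transcript length, compare genes. The highest of the 59 was pcna at a mean of 250 TPM over 36 libraries, above 97.2% of tested genes, followed by the kinetochore gene cenpw at 146 TPM and cdk1 at 92.2 TPM. The helicase subunit mcm7 stood at 39.5 TPM, ccnb1 at 35.1 TPM and aurkb at 32.5 TPM. At the other end, orc1 was at 0.658 TPM, ccne2 at 0.587, ccna1 at 0.426 and ccne1 at 0.171. Neuron markers were present in every group, with a summed level of 19 tested markers between 4500 and 7930 CPM, and skeletal muscle markers summed to 18.6 to 470 CPM. No tested marker of any cell type list was at 0 in all libraries of a group.

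At 400 ng/L, NBH brains held less RNA of a set of replication and mitosis genes than NBH Control brains. The test called 9 of 61 genes lower and none higher. A call means an adjusted p (Benjamini-Hochberg over all genes) below 0.05 in the quasi-likelihood test of edgeR. Across all 23292 genes tested, 3.74% were called in either direction and 2.31% were called lower. The 9 were kif2c, aurkb, cdk1, kif23, cdc6, cdk2, mcm7, mcm6 and kif20a, so they span origin licensing, the helicase, the cell cycle kinases and chromosome segregation. At an unadjusted p under 0.05, 34 of 61 were lower, against 10.1% of all genes. The fold change was below 0 for 56 of 61 genes, against 44.9% of all genes, and the median log2 fold change was -0.56 against 0.05 over all genes.

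**Figure D1:**
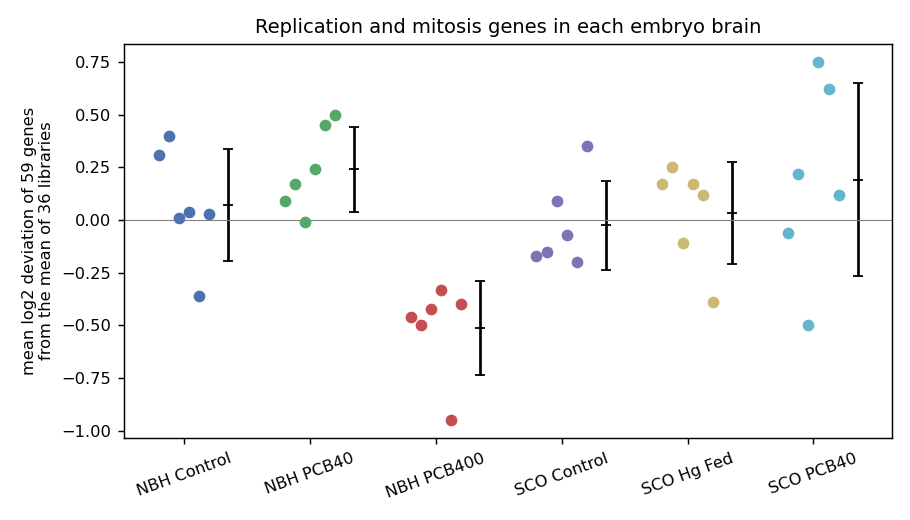
Mean log2 deviation of 59 replication and mitosis genes from their mean over 36 libraries, 1 point per embryo brain, with the group mean and standard deviation (n = 6) beside the points. The 6 NBH PCB400 brains lie between -0.95 and -0.33, and the other group medians lie between -0.11 and 0.2.

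The same can be read embryo by embryo in the mean log2 deviation of the 59 genes. The lowest, median and highest NBH Control brains were at -0.36, 0.03 and 0.4. NBH PCB40 brains were at -0.01, 0.2 and 0.5, and NBH PCB400 brains at -0.95, -0.44 and -0.33. All 6 NBH PCB400 brains were below all 6 NBH PCB40 brains, and 5 of them were below every NBH Control brain, because NBH Control 5 was itself low at -0.36. The lowest brain of the study was NBH PCB400 5, in which 51 of 59 genes lay below their mean.

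Among the kinesins, the largest change was in kif2c, which takes microtubules apart at kinetochores. Its levels (lowest, median, highest) were 9.42, 17 and 23.3 CPM in NBH Control, 17.5, 20 and 22.1 in NBH PCB40 and 5.15, 8.1 and 10.7 in NBH PCB400. All NBH PCB400 brains were below all NBH PCB40 brains, and 5 of 6 were below every control. The log2 fold change against control was -1.12 (SE 0.24, adjusted p = 0.0113), a 2.17-fold lower level. The cytokinesis kinesins kif23, at -0.91 (adjusted p = 0.03), and kif20a, at -0.88 (adjusted p = 0.0492), also fell. The remaining kinesins were at -0.76 for kif11, which pushes spindle poles apart (adjusted p = 0.0857), and -0.45 for kif4 (adjusted p = 0.315).

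Of the mitotic kinases and checkpoint genes, aurkb fell. Aurora B corrects faulty attachments of chromosomes to the spindle. Its lowest, median and highest levels were 22.4, 41.5 and 57.6 CPM in NBH Control and 11.5, 20.2 and 28.1 CPM in NBH PCB400, and the groups overlapped through the lowest control. Its log2 fold change was -1.05 (SE 0.26, adjusted p = 0.0221). The mitotic kinase plk1 was at -0.87 (adjusted p = 0.0561) and the checkpoint kinase bub1bb at -0.59 (adjusted p = 0.0992).

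The gene cdc20, which activates the anaphase-promoting complex, ranged most widely in the checkpoint set. It spanned 10.6 to 102 CPM in NBH Control and 0.412 to 32.5 CPM in NBH PCB400. The value of 0.412 CPM came from NBH PCB400 6, and the next lowest of the 6 was 6.82 CPM. Its log2 fold change of -1.39 had an SE of 0.52 and did not pass (adjusted p = 0.122).

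Cdk1 and Cdk2, the catalytic kinases of mitosis and of DNA synthesis, both fell. The cdk1 levels were 45.7, 80 and 113 CPM in NBH Control and 23.1, 44 and 56.2 CPM in NBH PCB400 (lowest, median, highest), a log2 fold change of -1.04 (SE 0.26, adjusted p = 0.0257). For cdk2 they were 23.9, 28 and 38.9 CPM in controls and 7.06, 12.4 and 34.5 CPM at 400 ng/L, with 5 of 6 exposed brains below every control and the sixth, NBH PCB400 6, inside the control range. Its log2 fold change was -1.03 (SE 0.28, adjusted p = 0.0383). Among the B cyclins, ccnb1 was at -0.9 (adjusted p = 0.055), ccnb2 at -0.63 (adjusted p = 0.125) and ccnb3 at -0.75 (adjusted p = 0.13).

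The cyclins ccne1, ccne2 and ccna1 were near the floor in most brains, where 3 reads correspond to 0.0451 to 0.0779 CPM. In NBH PCB400, ccne2 lay between 0 and 0.137 CPM, and in NBH Control between 0.0936 and 5.05 CPM. The 5.05 CPM came from NBH Control 2 alone, and the other 5 controls were at 0.2 CPM or less.

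All 6 MCM subunits had negative fold changes, from -0.95 for mcm5 to -0.46 for mcm4, and mcm7 and mcm6 were called. The mcm7 levels were 66.9, 90.9 and 97.7 CPM in NBH Control and 40.6, 56.7 and 68.3 CPM in NBH PCB400 (lowest, median, highest). The overlap came from NBH Control 5 at 66.9 CPM, while the other controls were at 87.1 CPM or more. The log2 fold change was -0.65 (SE 0.19, adjusted p = 0.0444) for mcm7 and -0.87 (SE 0.26, adjusted p = 0.0492) for mcm6. The value of mcm5 missed the threshold (adjusted p = 0.0582), and mcm2 was at -0.68 (adjusted p = 0.124).

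Brain NBH PCB400 6 stood apart from its group in the MCM genes. Its mcm5 level was 29.2 CPM against 6.96 to 15.3 CPM in the other 5 exposed brains and 25.4 to 33.4 CPM in controls. Its mcm3 level was 28.4 CPM and the other 5 ranged from 5.79 to 13.1 CPM. Averaged over the 6 subunits, its log2 deviation was 0.19, where the other exposed brains ran from -1.41 to -0.51. In the same brain the mitotic kinase and checkpoint genes averaged -1.59, the lowest value of the study, and the kinesins averaged -0.54. The first of these is a mean of 6 genes that includes cdc20 at 0.412 CPM. NBH PCB400 5, with cdc20 at 14.4 CPM, averaged -1.21. In the other genes of this role, aurkb, bub1, bub1ba, bub1bb and plk1, NBH PCB400 5 had 11.5, 1.66, 3.42, 6.15 and 9.67 CPM. NBH PCB400 6 was higher in each, at 17, 1.95, 5.54, 10.2 and 14 CPM, so its lower mean rests on cdc20.

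Before the helicase is loaded, cdc6 is needed, and it fell in all 6 exposed brains. Its levels were 7.66, 8.56 and 11 CPM in NBH Control and 3.81, 4.96 and 7.44 CPM in NBH PCB400 (lowest, median, highest), with no overlap. Its log2 fold change was -0.74 (SE 0.2, adjusted p = 0.0361). The origin recognition genes showed smaller values, with orc1 at -0.44, orc2 at -0.42, orc3 at -0.1, orc4 at -0.05 and orc5 at -0.08, none of which passed (adjusted p from 0.398 to 0.914).

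The helicase activators gins1 and cdc45 were also lower in 6 of 6 exposed brains than in every control, although neither was called. Their log2 fold changes were -0.72 (adjusted p = 0.0573) and -0.57 (adjusted p = 0.0959). With cdc6 they make 3 of 61 genes whose groups do not overlap, against 2.28% of all genes in that direction. The others of this role ran from -0.95 for gins3 to -0.13 for gins4.

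The clamp gene pcna had 210, 248 and 302 CPM in NBH Control and 73.3, 142 and 249 CPM in NBH PCB400 (lowest, median, highest), a log2 fold change of -0.83 (SE 0.26) that missed the threshold (adjusted p = 0.0598). NBH PCB400 6 again held the highest exposed value. The gene rrm2b, a ribonucleotide reductase subunit that in mammals also supplies nucleotides outside DNA synthesis, was at 83.5, 87.4 and 93.7 CPM in controls and 70.7, 100 and 109 CPM at 400 ng/L. It was at 0.12 (adjusted p = 0.623), and 4 of 6 exposed brains were above every control.

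No gene of the 12 at the centromere and kinetochore was called by edgeR, 5 were lower at an unadjusted p under 0.05, and their log2 fold changes ran from -0.71 for cenpk to 0.14 for cenpt. Among 8 genes of condensin and chromosome structure none was called either, and 3 were lower at an unadjusted p under 0.05. Over all genes, 10.1% were lower at that unadjusted p and 2.31% were called lower. In that set top2a, the topoisomerase that untangles sister DNA, was at -0.56 (adjusted p = 0.155), and mki67, which coats mitotic chromosomes and is a common proliferation marker, was at -0.34 (adjusted p = 0.497). The mki67 levels overlapped widely, at 8.77 to 21.1 CPM in controls and 6.89 to 19 CPM at 400 ng/L.

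**Figure D2:**
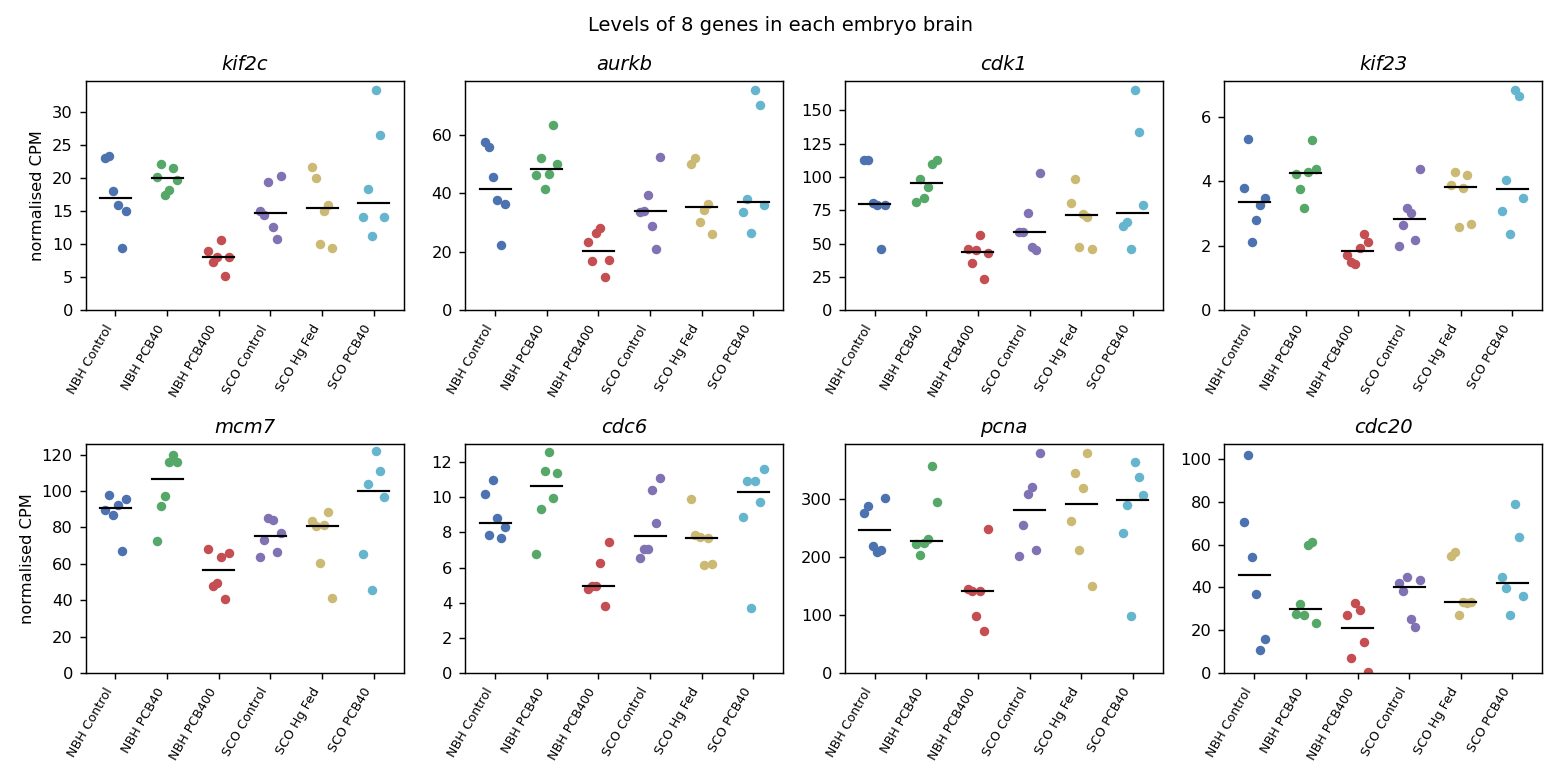
Levels in CPM of single replication and mitosis genes in each of the 36 brains, by group, 1 point per embryo. For kif2c the 6 NBH PCB400 brains lie between 5.15 and 10.7 CPM and the 6 NBH PCB40 brains between 17.5 and 22.1 CPM.

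The call in kif2c held in all 8 other processing settings and with any 1 library of these groups left out, with an adjusted p of at most 0.0446. The other 8 calls were each lost in at least 1 of these fits. The count fell to 1 without NBH Control 2 or NBH PCB400 2, and to 2 without NBH PCB400 5. It was 3 without NBH Control 1, NBH Control 6 or NBH PCB400 3. It was 4 without NBH Control 4 and 5 without NBH Control 3 or NBH PCB400 1. Calls over all genes were not counted in the leave-one-out fits, so their share cannot be set beside these counts. Among genes not called in the main fit, pcna was called in 3 of the 8 other settings and mcm5 in 2. The genes ccnb1 and plk1 were called in 1 setting each, and mki67, top2a and mcm2 in 0.

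The contrast between the 2 doses was larger. Against NBH PCB40, 24 of 61 genes were called lower at 400 ng/L and none higher, where 3.52% of all genes were called and 2.4% were called lower. The median log2 fold change of the 61 genes was -0.74 against 0.05 over all genes, and 58 of 61 were below 0, where 45.1% of all genes were. At an unadjusted p under 0.05, 42 of 61 were lower, against 10.8% of all genes. For 14 genes no NBH PCB400 brain overlapped an NBH PCB40 brain, against 0.897% of all genes in that direction. This comparison shares the NBH PCB400 libraries with the one above, so the values of both are given side by side and are not independent.

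Kinesins led again, with 4 of 5 called. The log2 fold change was -1.3 for kif2c (SE 0.24, adjusted p = 0.00777), -1.18 for kif23 (adjusted p = 0.0103), -1.1 for kif11 (adjusted p = 0.0212) and -1.02 for kif20a (adjusted p = 0.0294). The kinases aurkb at -1.28 (adjusted p = 0.0102), plk1 at -1.11 (adjusted p = 0.0212) and bub1bb at -0.87 (adjusted p = 0.0229) fell in 6 of 6 brains relative to every NBH PCB40 brain. The aurkb levels were 41.4, 48.3 and 63.1 CPM at 40 ng/L and 11.5, 20.2 and 28.1 CPM at 400 ng/L (lowest, median, highest).

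Cell cycle kinases and cyclins followed, with cdk1 at -1.22 (adjusted p = 0.0138), cdk2 at -1.19 (adjusted p = 0.0212) and ccnb1 at -1.12 (adjusted p = 0.0238). For cdk1 the lowest brain at 40 ng/L, at 81.3 CPM, stood above the highest at 400 ng/L, at 56.2 CPM. The call in ccna1, at -3.08 (adjusted p = 0.0212), rested on NBH PCB40 6, which had 11.7 CPM where every other brain of the study had 1.17 CPM or less. Without that library, or without NBH PCB400 2 or NBH PCB400 5, ccna1 was not called. Whether reads of ccna1, ccne2, cdc20 and cenpn were divided with similar transcripts was not tested.

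In replication, 4 of 6 MCM genes fell, namely mcm5 at -1.12, mcm3 and mcm6 at -1.07 each, and mcm7 at -0.87, with adjusted p from 0.0138 to 0.0329. The licensing gene cdc6 was at -0.93 (adjusted p = 0.0138) and the activator cdc45 at -0.71 (adjusted p = 0.0416). The values of mcm4, mcm2 and pcna were -0.78, -0.86 and -0.85, just outside the threshold with adjusted p from 0.0522 to 0.0527. In the 8 other settings pcna was called in 4 and mcm2 in 2.

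Chromosome structure genes, none of which was called against control, were called here in 5 of 8. These were the condensin subunits ncapd3 at -0.94, ncapg at -0.76, ncaph2 at -0.74 and ncapg2 at -0.72, and top2a at -0.8. The ncapg levels did not overlap, at 19.4, 26 and 32.9 CPM at 40 ng/L and 10.7, 16.5 and 17.8 CPM at 400 ng/L. At the kinetochore, cenpi fell by 0.89 on the log2 scale and cenpk fell by 0.8. The proliferation marker mki67 was at -0.71 (adjusted p = 0.127). Of the 8 other settings, only the removal of a length trend gave a call of mki67 (adjusted p = 0.0438).

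**Figure D3:**
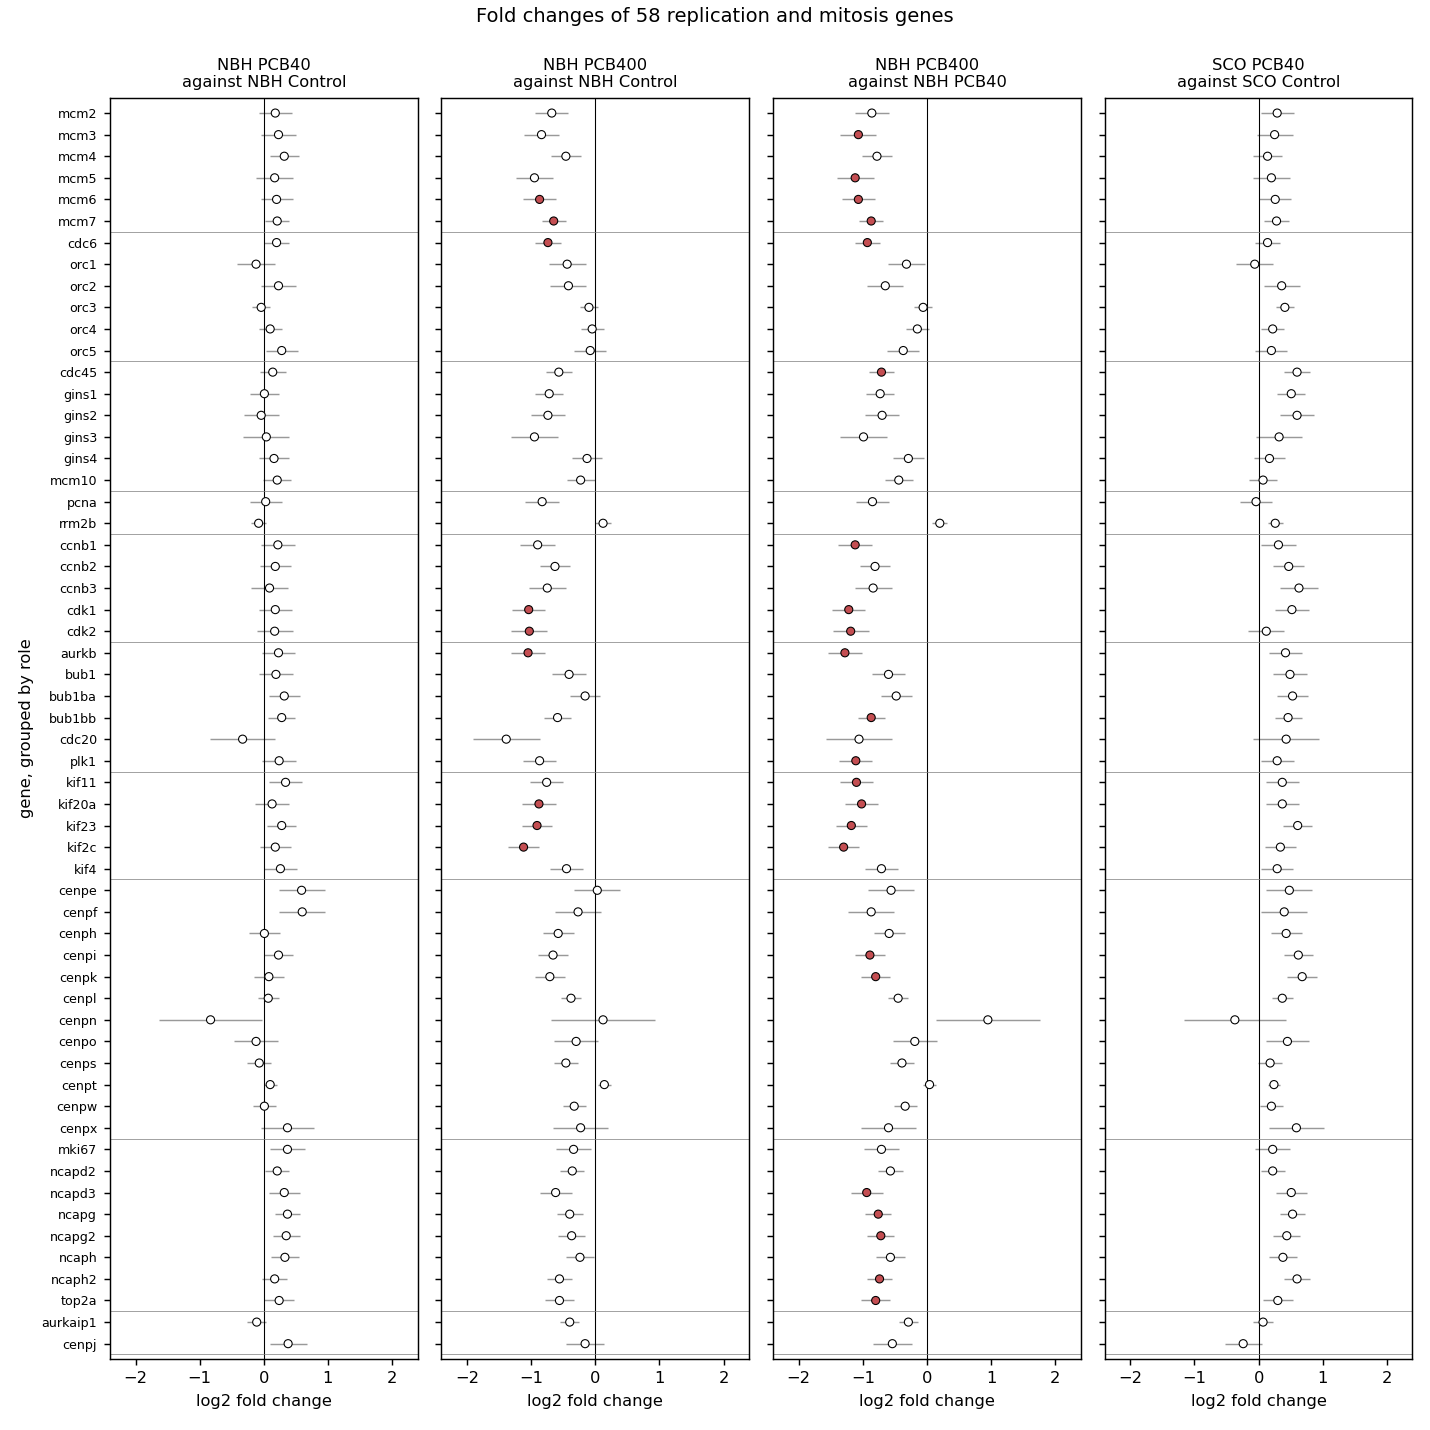
Log2 fold changes with their standard errors for 58 replication and mitosis genes, in 4 comparisons (panels), grouped by role, with called genes as filled points. The genes ccna1, ccne1 and ccne2 are left out because they were near the floor in most brains. The kinesin kif2c stands at -1.12 for NBH PCB400 against NBH Control and -1.3 against NBH PCB40.

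Of the 24 calls, those of kif2c, aurkb and kif23 held in all 8 other settings and with any 1 library left out, with adjusted p of at most 0.0294, 0.0372 and 0.0398. The count fell to 3 without NBH PCB400 5 and to 6 without NBH PCB40 5 or NBH PCB400 2. It was 12 without NBH PCB40 4, NBH PCB40 6 or NBH PCB400 3. Here too, calls over all genes were not counted in the leave-one-out fits.

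Other genes of the same processes, from a list chosen with results of these data known, moved in the same direction at 400 ng/L. Of 41 tested replication genes outside the 61, 9 were called lower than in NBH Control and none higher, where 2.31% of all genes were called lower, with a median log2 fold change of -0.52 against 0.05 over all genes. They included the single-stranded DNA binding subunits rpa1, rpa2 and rpa3 at -0.82, -0.8 and -0.77, and slbp, which processes histone mRNA for DNA synthesis, at -0.69. Of 48 further mitosis genes, 15 were called lower and none higher, with a median of -0.68. These included birc5a, a partner of Aurora B, at -1.21 (adjusted p = 0.011), prc1b, which bundles the central spindle, at -1.02, and the securin gene pttg1 at -1.01. Against NBH PCB40 the counts were 13 of 41 and 20 of 48 called lower, where 2.4% of all genes were, and the cohesin gene rad21b was called higher at 0.43.

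Of 41 tested upstream control genes, 2 were called lower than in NBH Control, where 2.31% of all genes were called lower, cdk4 at -1.05 (SE 0.23, adjusted p = 0.0137) and cdk7 at -0.56 (adjusted p = 0.035), and the median was -0.19 against 0.05 over all genes. The cell cycle inhibitor cdkn1a was at -0.21 (adjusted p = 0.864), the cyclin ccnd1 at 0.19 and the transcription factor e2f1 at 0.18. Against NBH PCB40, 5 of 41 were called lower, where 2.4% of all genes were, cdk4, cdk7, e2f2, e2f8 and lin9, at -1.19 to -0.54.

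Markers of cell types moved beside these genes as follows. Of 25 neural progenitor markers, 1 was called lower than in NBH Control, where 2.31% of all genes were. It was the proneural gene neurog1, at -0.64 (adjusted p = 0.044). Of the 25, 15 were below 0 and 10 above, with a median of -0.09 against 0.05 over all genes. The progenitor factor sox2 was at 0.25 (adjusted p = 0.285), gfap at 0.2, nes at -0.37 and sox3 at -0.29. Summed progenitor markers ran from 6420 to 9220 CPM in NBH Control and from 4700 to 10100 CPM in NBH PCB400. Against NBH PCB40, 3 of 25 were called lower, where 2.4% of all genes were. These were neurog1, ascl1a and insm1a, at -0.83, -0.79 and -0.81. In that comparison 18 of the 25 were below 0 and 7 above, with a median of -0.16 against 0.05 over all genes.

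Of 19 neuron markers, gap43 and map1b were called lower than in NBH Control, at -0.71 and -0.42, where 2.31% of all genes were called lower. The other markers went both ways, with 11 of 19 above 0 and a median of 0.01. The summed level of the 19 was 7310 to 7930 CPM in controls and 5770 to 6510 CPM at 400 ng/L, and their mean log2 deviation was -0.02 (SD 0.1, n = 6) and -0.06 (SD 0.24, n = 6). Of 12 microglia and leukocyte markers, cd74a alone was called lower, where 2.31% of all genes were. Of these 12, 7 were above 0 and 5 below, with a median of 0.15 against 0.05 over all genes. No marker of oligodendrocytes, erythrocytes, skeletal muscle or endothelium was called. Of 13 muscle markers, 13 were above 0 and 0 below, with a median of 0.73. For erythrocytes 6 were above and 1 below (median 0.56), and for endothelium 6 and 2 (median 0.19). For oligodendrocytes 4 were above and 8 below (median -0.04). Muscle markers summed to 20.7 to 119 CPM in controls and 29.9 to 194 CPM at 400 ng/L. The part of these cell types in the values of the replication and mitosis genes was not tested.

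Libraries also differed in a slope of expression on transcript length, and this slope moved with the groups. It was computed per library as the log2 deviation of a gene from its mean per log2 base of effective length, and it ran from -0.116 to -0.035 in NBH Control, from -0.172 to 0.15 in NBH PCB40 and from -0.098 to 0.163 in NBH PCB400. NBH PCB400 1 and NBH PCB400 4 had slopes of -0.098 and -0.079, inside the control range, with gene means of -0.46 and -0.33. NBH PCB400 2, 3, 5 and 6 had slopes of 0.152, 0.005, 0.016 and 0.163, above every NBH Control slope. Their gene means were -0.5, -0.42, -0.95 and -0.4. The part of the slope in these means was not tested. With a length trend removed from each library, 6 genes were called against NBH Control and 27 against NBH PCB40, where 862 and 845 of all 23292 genes were. With the slope as a covariate, 1 was called against NBH Control and 9 against NBH PCB40, where 503 and 371 of all 23292 genes were. The medians over all settings stayed between -0.58 and -0.37 and between -0.77 and -0.67.

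**Figure D4:**
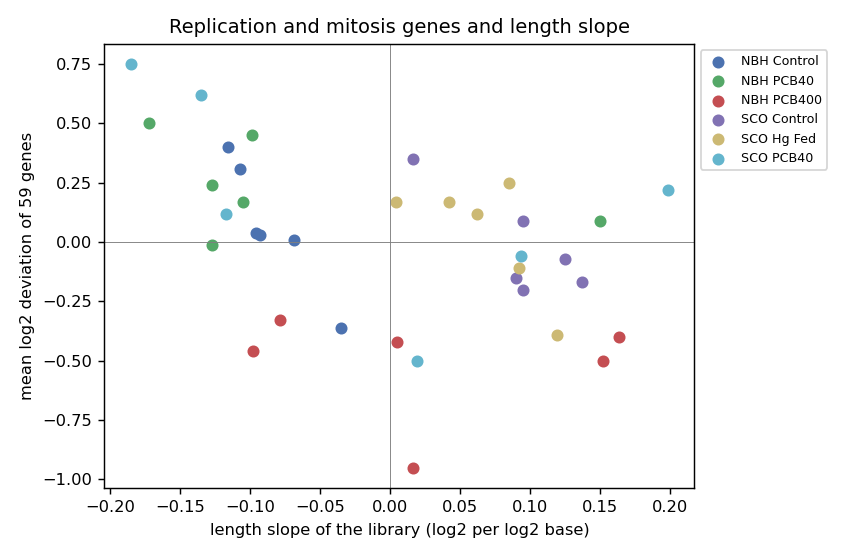
Mean log2 deviation of 59 genes (vertical axis) against the length slope of each library in log2 per log2 base (horizontal axis), 1 point per brain, coloured by group. NBH PCB400 brains lie at or below -0.33 at slopes from -0.098 to 0.163.

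At 40 ng/L in NBH brains no replication or mitosis gene passed the test. None of 61 was called in edgeR's test against NBH Control, where 0% of all genes was called, and 1 had an unadjusted p under 0.05 (higher), against 1.58% of all genes in that direction. The fold change was above 0 for 50 of 61 genes, against 52.6% of all genes, and the median was 0.18 against 0.01 over all genes. The smallest p belonged to ccna1 at 3.68 (SE 0.75, adjusted p = 0.288), which rested on NBH PCB40 6 and was the 1 gene called by DESeq2, while limma voom called 0 (18 and 0 of all 23292 genes). Next were the condensin genes ncapg at 0.37 and ncapg2 at 0.35, both with an adjusted p of 1.

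The fixed markers were close to control at that dose, with pcna at 0.03, mcm2 at 0.18, mcm5 at 0.17, cdk1 at 0.18, ccnb1 at 0.22, aurkb at 0.23, plk1 at 0.24, top2a at 0.24 and mki67 at 0.37. With standard errors of 0.23 to 0.29, changes of this size were not detectable with 6 brains a group.

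In SCO brains at 40 ng/L, 0 of 61 genes was called by edgeR against SCO Control, where 2.67% of all genes were called and 0.747% were called higher. At an unadjusted p under 0.05, 17 of 61 were higher and 0 lower, against 8.56% of all genes higher. It was above 0 for 54 of 61, against 53.3% of all genes, with a median of 0.32 against 0.03 over all genes. DESeq2 called 3 genes and limma voom 0, where they called 1303 and 902 of all 23292 genes. The 3 were ncaph2, cdc45 and orc3, at 0.6, 0.6 and 0.41 in edgeR, with adjusted p of 0.0913, 0.0943 and 0.0993 there and from 0.024 to 0.41 over the alternatives. The core markers were at 0.52 for cdk1 (adjusted p = 0.288), 0.42 for aurkb, 0.31 for ccnb1, 0.3 for top2a, 0.29 for plk1 and mcm2, 0.22 for mki67, 0.2 for mcm5 and -0.04 for pcna. Without SCO PCB40 1, 2 genes were called, and without SCO PCB40 2 or SCO PCB40 3, 1 was. Calls over all genes were not counted in these leave-one-out fits.

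These SCO brains spread more than any other group. Their means over 59 genes had an SD of 0.46, against 0.2 to 0.27 in the other 5 groups. SCO PCB40 4 and SCO PCB40 5 were at 0.75 and 0.62, the highest of the study, and SCO PCB40 3 was at -0.5. The cdk1 levels show this, at 165 and 134 CPM in SCO PCB40 4 and SCO PCB40 5 and 46 to 79.2 CPM in the other 4, where SCO Control ran from 45.2 to 103 CPM.

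In SCO PCB40 3 the MCM genes averaged -1, the lowest of its group. Its mcm5 level was 9.56 CPM where the other 5 brains had 29.5 to 47.7 CPM, its cdc6 level was 3.72 CPM against 8.86 to 11.6 CPM, and its pcna level was 98.9 CPM against 242 to 364 CPM. The same brain had the highest rrm2b level of the study, 120 CPM. The 2 brains with the highest means had length slopes of -0.185 and -0.135, below the SCO Control range of 0.016 to 0.137, and SCO PCB40 3 was at 0.019. Over all settings, which included both length corrections, the median log2 fold change of the genes against SCO Control ran from 0.15 to 0.35. The part of this slope in single brains was not tested.

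Beside them, 5 of 13 skeletal muscle markers were called higher in SCO PCB40 and 1 lower. Over all genes, 0.747% were called higher and 2.67% were called in either direction. The muscle markers summed to 25.8 to 470 CPM, against 23.4 to 60.8 CPM in SCO Control. The mean log2 deviation of the 13 was highest in SCO PCB40 3, at 2.72, the brain with low MCM genes, cdc6 and pcna, and next highest in the study was 1.5 in NBH PCB400 4. The Notch ligand gene dla, at 0.74, and the proneural gene ascl1b, at 0.86, were called higher among 25 progenitor markers. Of these 25, 17 were above 0 and 8 below, with a median of 0.14 against 0.03 over all genes. Further, 2 of 12 microglia and leukocyte markers were called higher, with 9 above 0 and 3 below. Of 12 oligodendrocyte markers, 3 were called lower, with 1 above 0 and 11 below. No neuron, erythrocyte or endothelium marker was called. Of 19 neuron markers, 4 were above 0 and 15 below, with a median of -0.13. Of 7 erythrocyte markers, 6 were above 0 and 1 below, with a median of 0.78. Of 8 endothelium markers, 4 were above 0 and 4 below. The part of these cell types in the replication and mitosis values was not tested. Of the further replication and mitosis genes none of 41 and none of 48 was called by edgeR, with medians of 0.25 and 0.4. At an unadjusted p under 0.05, 10 and 19 of them were higher and 0 lower, against 8.56% of all genes higher.

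**Figure D5:**
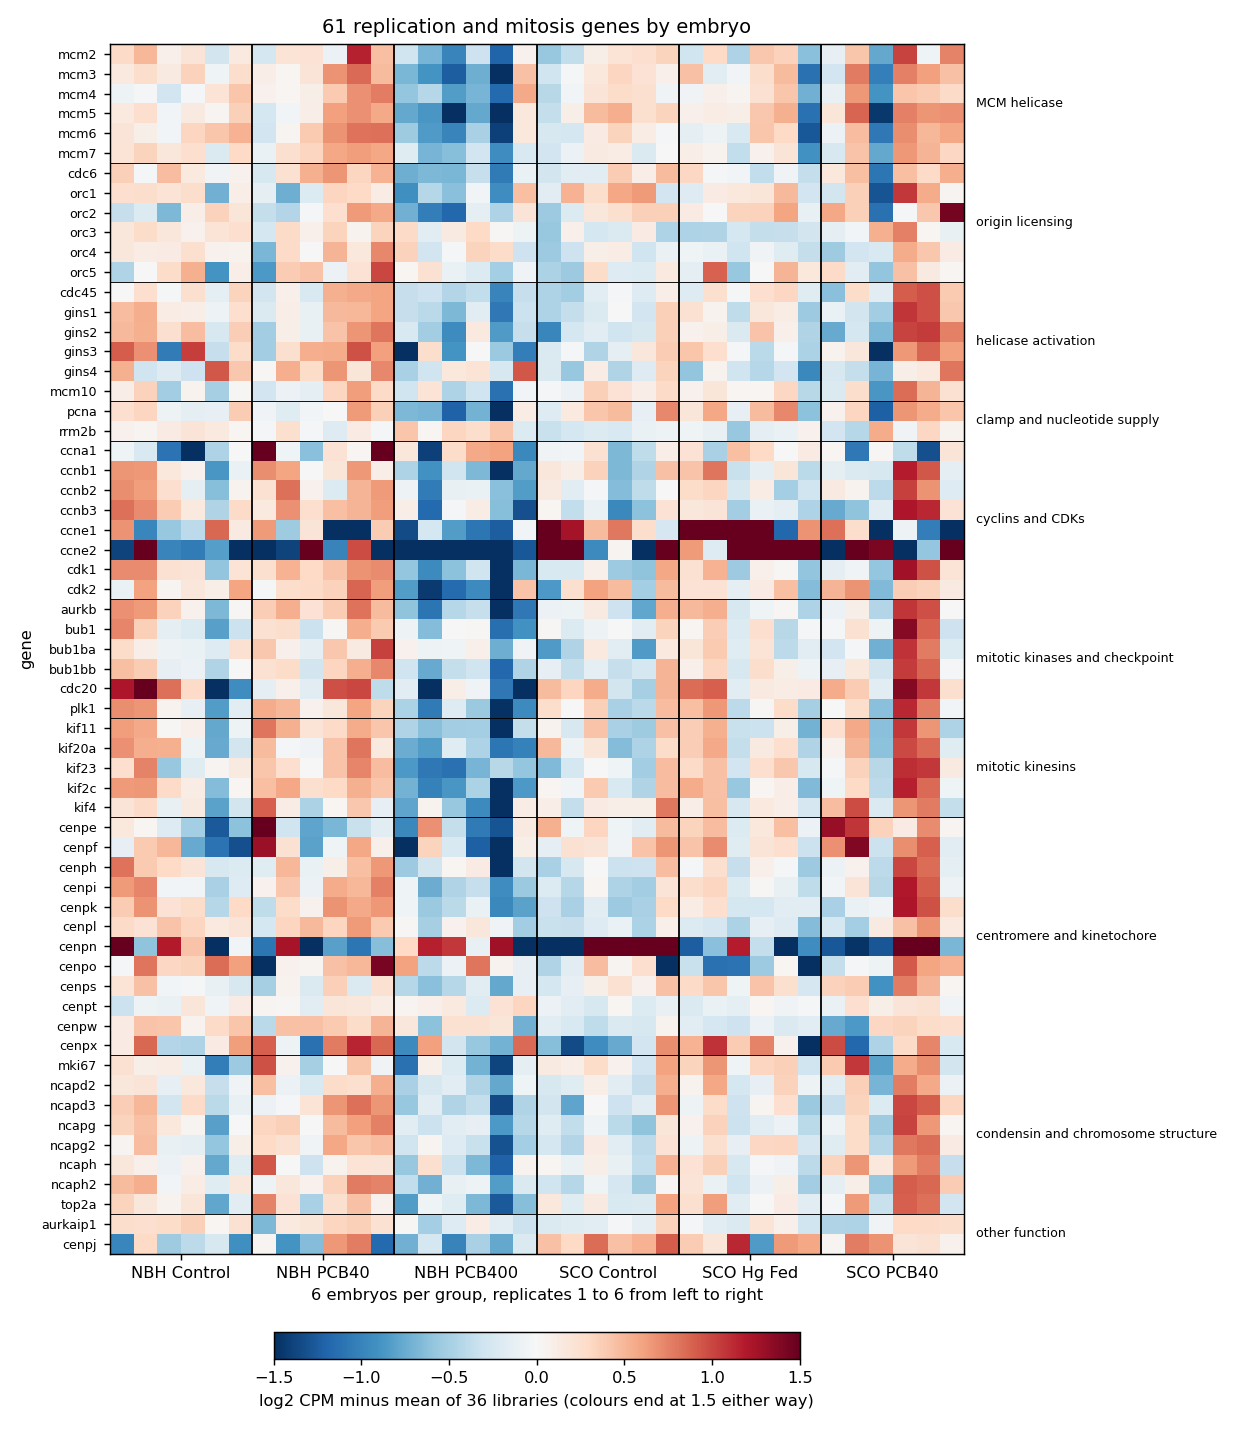
Log2 deviation of each replication and mitosis gene (rows, by role) from its mean over 36 libraries, in each brain (columns, by group). NBH PCB400 brains are low in most rows, SCO PCB40 4 and SCO PCB40 5 are high, and the MCM rows of NBH PCB400 6 average 0.19.

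A parental tuna diet left no called difference among the 61 genes. None was called by edgeR, DESeq2 or limma voom in SCO Hg Fed against SCO Control, where they called 0, 77 and 1 of all 23292 genes. In edgeR, 1 higher and 1 lower had an unadjusted p under 0.05, against 5.45% of all genes in either direction. The median was 0.05 against 0 over all genes. The smallest p belonged to the kinetochore gene cenpn, at -2.1 (SE 0.84, adjusted p = 0.694), followed by ccne1 at 1.58 and cenpx at 0.78. Cdk1 was at 0.11, pcna at -0.01, mcm2 at -0.03, mcm5 at -0.15, aurkb at 0.13, ccnb1 at 0.11, plk1 at 0.07, top2a at 0.06 and mki67 at 0.08, each with an adjusted p of 1.

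Between the populations without exposure, NBH Control and SCO Control, 2 of 61 genes were called, where 17.3% of all genes were. The fold change was above 0 for 43 of 61, against 49.4% of all genes, with a median of 0.14 against -0.01 over all genes. In a model of these groups alone 9 were called, where 6268 of all 21368 genes were. DESeq2 called 4, where it called 4978 of all 23292 genes. The centriole gene cenpj was lower in NBH at -1 (SE 0.3, adjusted p = 0.0199), with levels of 1.13, 1.64 and 2.78 CPM against 2.79, 3.18 and 4.29 CPM and no overlap. The kinetochore gene cenpl was higher in NBH at 0.49 (SE 0.16, adjusted p = 0.0352), with 10.9, 11.7 and 13.2 CPM against 7.04, 8.18 and 10.4 CPM. Neither was called once a length trend was removed or the length slope was a covariate, which gave 0 calls each. Over all 23292 genes these fits called 2592 and 543. Every NBH Control slope was below every SCO Control slope. Without NBH Control 6 neither was called, and cenpj alone was called without NBH Control 1, 3 or 4 or SCO Control 1 or 3. Without SCO Control 2 or SCO Control 5, cenpl was not called either, while cenpj and orc3 were. The origin gene orc3 was at 0.39 (adjusted p = 0.0504, from 0.0226 to 0.635 over the alternatives). The groups also did not overlap in cenpw and rrm2b, both higher in NBH, at 0.48 (adjusted p = 0.0647) and 0.3 (adjusted p = 0.0898), so 3 genes were higher without overlap, against 5.44% of all genes, and 1 was lower, against 7.68%. Of the core markers, cdk1 was at 0.41 (adjusted p = 0.28), aurkb at 0.29, mcm2 at 0.14, ccnb1 at 0.13, plk1 at 0.06, top2a at -0.07, mcm5 at -0.09, pcna at -0.16 and mki67 at -0.32, none called.

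At 40 ng/L, NBH and SCO brains differed in 1 of 61 genes, ccna1, where 0.73% of all genes were called. It was at 3.5 (SE 0.74, adjusted p = 0.0221) and was not called without NBH PCB40 6 or without SCO PCB40 2. The kinetochore genes cenpn and cenpw followed at -1.78 (adjusted p = 0.297) and 0.3 (adjusted p = 0.439), and the core markers lay between -0.18 for mki67 and 0.1 for aurkb. The effect of 40 ng/L itself was compared between populations by an interaction term, which called 0 of 61 genes in edgeR and 0.0172% of all genes. At an unadjusted p under 0.05, 1 was higher and 1 lower, against 9.19% of all genes in either direction. DESeq2 called 1, ccna1, and 77 of all 23292 genes. The smallest p values belonged to ccna1 at 3.92 (SE 1.02, adjusted p = 0.193), orc3 at -0.45 (adjusted p = 0.488) and rrm2b at -0.34 (adjusted p = 0.569), and the core markers lay between -0.34 for cdk1 and 0.15 for mki67.

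Most pairs of these genes rose and fell together from brain to brain. After group means were removed, 1446 of 1711 gene pairs correlated positively over 36 brains, with a median r of 0.39 and a range from -0.68 to 0.95. These values share library and depth and are given as a description. No such value was computed for other genes or for single groups. The genes closest to the mean of the others were cdk1 and ncapg, each with r = 0.93, and ncaph2 with 0.91. Farthest were rrm2b at -0.19, ccne2 at -0.12, ccne1 at -0.05, ccna1 at -0.02 and orc3 at 0.02.

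By role, correlations ran from 0.17, between cyclins with CDKs and origin licensing genes, to 0.94. Mean MCM levels went with origin licensing genes at r = 0.82, with the clamp and nucleotide genes at 0.79 and with helicase activators at 0.78. With mitotic kinases and checkpoint genes r was 0.25. That value includes NBH PCB400 6, with an MCM mean of 0.19, a kinase and checkpoint mean of -1.59 and cdc20 at 0.412 CPM. The part of this brain in the correlation was not tested. The clamp and nucleotide mean came from pcna and rrm2b only. Mean kinesin levels went with condensin and chromosome structure genes at 0.94 and with mitotic kinases at 0.79. Across replication and mitosis, helicase activators went with kinetochore genes at 0.74 and with condensin genes at 0.7, and the clamp and nucleotide genes went with condensin genes at 0.67 and kinesins at 0.66. The reductase gene rrm2b ran the other way from the MCM genes, with r = -0.46 over the 36 brains, and at -0.17 from the kinesins. No test was made of these differences between correlations.

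A kinetochore gene, cenpn, took low and high values inside most groups. In SCO Control it was at 1.29 and 2.29 CPM in replicates 1 and 2 and 23.1 to 37.4 CPM in the other 4, and in SCO PCB40 at 44.6 and 49.7 CPM in replicates 4 and 5 and 2.33 to 4.03 CPM in the other 4. NBH Control ran from 1.16 to 19.5 CPM.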

How the data were processed

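Per the submitters' processing notes, the tools named were Salmon 1.3.0 and edgeR 3.30.3, and the genome build is not given in the sources used here. The authors deposited, for each of 36 libraries, a table of RefSeq transcripts with expected counts (estimated reads, not normalised), TPM and, per the file headers, an effective length, an other unit in bases. Expected counts were summed per gene through a RefSeq table (assembly MU-UCD_Fhet_4.1, names only) and rounded to whole numbers. TPM as deposited by the authors was summed per gene.

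Low genes were removed with filterByExpr, given the groups, so that 23292 were tested, with TMM scaling. All 36 libraries entered 1 quasi-likelihood fit in edgeR 4.0.16 under R 4.3.3, and 8 contrasts were tested two-sided, with Benjamini-Hochberg adjustment over all genes at 0.05. Because the filter keeps a gene on the strength of 1 group, counts over genes that passed do not stand alone as support. Alternatives were RLE scaling, no filter, DESeq2 1.42.0, limma 3.58.1 voom, only the groups compared, a replicate block, a length trend removed, a length slope covariate, and each library left out in turn. The common biological coefficient of variation was 0.39. The model was tested on simulated data, with 100 genes changed 2-fold and 100 changed 4-fold in NBH PCB400. Against NBH Control it recovered 48% of the 2-fold and 72% of the 4-fold changes, and 4 of 124 calls were false. Real changes of these sizes can therefore go uncalled. Depth was 38.5 to 66.4 M reads per library.

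The genes and lists were chosen with earlier results of these data known. The named genes of a comparison were those called (at most 25 by smallest p), or the 3 with the smallest p where fewer than 3 were called, plus pcna, mki67, top2a, mcm5, mcm2, cdk1, ccnb1, aurkb and plk1. Other named genes were picked after their values were seen. Floors of 3 counts cover counting error only.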

Additional observations from a re-analysis of the deposited data

Results flagged for a closer look

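In groups of 6 brains, a value was picked out when its gap to the nearest other brain was large relative to the range of the group (Dixon's ratio). Chance picks about 1 in 20 groups, or 10.8 of the 216 tested, and 15 were found.

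NBH PCB400 5 was low in cdc45 at 4.59 CPM (others 6.71 to 7.35) and in kif11 at 4.62 CPM (others 8.69 to 10.5), and its mean over 59 genes was -0.95 (others -0.5 to -0.33). NBH PCB400 6 was high in cdk2 at 34.5 CPM (others 7.06 to 14.3), in mcm3 at 28.4 CPM (others 5.79 to 13.1) and in mcm5 at 29.2 CPM (others 6.96 to 15.3).

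SCO Control 6 was high in bub1bb at 19.9 CPM (others 10.9 to 12.8), in cenpk at 16.1 CPM (others 8.96 to 11.6) and in cenpx at 4.89 CPM (others 1.16 to 2.46). NBH Control 5 was low in mcm7 at 66.9 CPM (others 87.1 to 97.7), and SCO PCB40 3 was low in cdc6 at 3.72 CPM (others 8.86 to 11.6).

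In NBH PCB40, replicate 6 was high in ccna1 at 11.7 CPM (others 0.156 to 1.17), replicate 2 was high in cenpn at 15.3 CPM (others 1.56 to 4.17) and replicate 1 was low in cenpw at 82.2 CPM (others 132 to 156). In SCO Hg Fed, replicate 3 was high in cenpn at 14.8 CPM (others 1.69 to 5.08).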

How the results depend on the processing

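No gene called in any comparison changed direction under any alternative. Against NBH Control, 9 genes called lower in NBH PCB400 became 18 with DESeq2 and 1 with the length slope as a covariate, and 1 to 13 with a library left out. Calls over all genes there went from 870 to 1556 with DESeq2 and 503 with the slope. Against NBH PCB40, 24 became 12 in a model of only those groups and 9 with the length slope, and 3 to 33 with a library left out. Calls over all genes fell as well, from 820 of 23292 to 123 of 21481 with only those groups and 371 of 23292 with the slope. For NBH PCB40 against NBH Control, 0 became 1 with DESeq2, which called 18 of all genes, and stayed 0 with any library left out. For SCO PCB40 against SCO Control, 0 became 3 with DESeq2 and 0 to 2 with a library left out. Calls over all genes went from 622 to 1303 with DESeq2. SCO Hg Fed stayed at 0 throughout. Between the control groups, 2 became 4 with DESeq2, 9 with only those groups, 0 with either length correction and 0 to 3 with a library left out. Over all genes, 4040 calls became 4978 with DESeq2 and 6268 with only those groups. They became 2592 with the length trend removed and 543 with the slope. Between the PCB40 groups, 1 became 0 with limma voom, 0 with only those groups, and 0 to 2 with a library left out. There 170 calls over all genes became 79 with limma voom and 8 with only those groups. The interaction stayed at 0 except for 1 with DESeq2, which called 77 of all genes. For fits with a library left out, calls over all genes were not counted. The cause of each shift was not tested.

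The replicate block gave 11, 22, 0, 0 and 0 called genes for the 5 treatment comparisons in the order above, 3 for the controls and 0 for the PCB40 groups, where ccna1 was lost. Over all genes it gave 1043, 823, 0, 643 and 1, then 4140 and 138. The labels do not say that a number marks a shared clutch, and 7 of 90 same-numbered pairs correlated above 0.1 in their deviations (median 0.01), so the samples were not treated as paired; 6 of 36 libraries were closest to their own number.

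Among genes never called, pcna for NBH PCB40 against NBH Control (0.03) turned to -0.01 without NBH Control 3 or 4, -0.02 without NBH Control 5 or NBH PCB40 6 and -0.09 without NBH PCB40 5, and ranged up to 0.09. There mcm2 (0.18) ranged from -0.04, without NBH PCB40 5, to 0.28. For SCO PCB40, pcna (-0.04) turned to 0.01, 0.07 and 0.14 without SCO Control 4, SCO Control 6 and SCO PCB40 3, and ranged down to -0.14 with a library left out and to -0.18 with the length trend removed. In brains where genes such as ccne1, ccne2 and ccna1 were under about 1 CPM, their values are limited by depth. Other brains were higher, mainly in ccne2. Its levels were 2.1, 5.56, 4.21 and 1.88 CPM in SCO Hg Fed 3, 4, 5 and 6. In SCO Control 1, 2 and 6 they were 3.4, 2.37 and 5.07 CPM, and in SCO PCB40 2, 3 and 6 they were 3.85, 1.09 and 1.31 CPM. NBH Control 2 had 5.05 CPM and NBH PCB40 3 had 2.85 CPM.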
